A study of Mus musculus with 16 samples.

Results

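Ovariectomy (Ovx) was compared with control (Ctrl) in the left atrium (LA) of mice that received no angiotensin II (AngII). The comparison takes 8 of the 16 LA libraries of the series, chosen by their labels: 4 libraries from Ovx mice and 4 from Ctrl mice. All mice were C57BL6/J females of 24 months. Ovx mice had lost their ovaries at 12 months of age and were otherwise untreated. Ctrl mice kept their ovaries and were untreated too. Of the remaining 8 libraries, 4 came from Ovx + AngII mice and 4 from AngII mice. Ovx + AngII mice were ovariectomized at 12 months and then infused with AngII at the end of the protocol from a subcutaneous minipump. AngII mice were infused with their ovaries in place. Each library was made from RNA of the LA as dissected, with all its cell types. The model has limits that belong to its design: female mice stop cycling with age even with ovaries in place, mice without AngII carried no vehicle-filled pump, and tissue was taken 12 months after the operation, so early responses were not sampled.

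Ovarian estrogens act mainly through 2 nuclear receptors, estrogen receptor alpha (Esr1) and beta (Esr2), which bind estrogen response elements in DNA, and through the membrane receptor Gper1. The LA is a thin-walled chamber that fills from the lungs and secretes natriuretic peptides when stretched. Raised filling pressure enlarges it and activates its fibroblasts, and ovariectomy is widely used to ask how the loss of ovarian steroids bears on such remodelling.

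The tissue was LA in all 8 libraries. The atrial genes Nppa, Myl4, Myl7, Sln and Kcnj3 were abundant (12275 normalised counts or more in each), the ventricular myosin light chain Myl2 was at 15.7 or less and the ventricular regulator Irx4 was at or near 0. Xist, which is made only from a silenced X chromosome, was at 11154 or more in all 8, and 4 genes of the Y chromosome were at 0. Column totals of the deposited normalised read counts were 17585151 to 18353356 in Ovx and 20065477 to 20687218 in Ctrl libraries. Ctrl replicate 4 stood apart. Its mean correlation with the other Ctrl libraries was 0.945, against 0.963 to 0.980 for every other library of the series with its own group. Its mean correlation with the AngII libraries, 0.956, was the lowest of the 16 libraries, and Ctrl replicate 2 also correlated more with AngII libraries (0.970) than with its own group (0.966). In the deposited table a heading that names AngII begins above its column, whereas its title says control and its treatment label says none. The label was followed, and differences are also given without this library where that moved them by over 1.5 times. It also held more marker RNA of other cells than the other 3 Ctrl libraries: 49815 against 17118 to 23640.4 summed counts of 16 macrophage markers, 943 against 67.9 to 104 of 8 neutrophil markers and 107535 against 6621 to 22640.5 of 8 red blood cell genes. The sum of 8 lung epithelial markers was 485 against 40.8 or less, but it was not spread over the list. Their mean log2(count + 1) was 1.115 in Ctrl replicate 4 and 0.811 to 1.298 in the other 3. Sftpb, Sftpc and Sftpd were at 0 in all Ctrl libraries. The part these cells played in the results was not tested. In bulk tissue fewer cells of a type and less RNA per cell cannot be told apart.

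No gene passed the test between Ovx and Ctrl LA. Of 14251 genes tested with limma, 0 (0%) passed a Benjamini-Hochberg adjusted p of 0.05, with or without a log2 difference of 1 or more in size, and the smallest adjusted p was 0.501. At an unadjusted p under 0.05 there were 1234 genes (8.66%), of which 599 were higher (4.2%) and 635 lower (4.46%) in Ovx mice. The 4 Ovx values lay wholly above or below the 4 Ctrl values for 635 genes (4.46%), 316 higher (2.22%) and 319 lower (2.24%). Without Ctrl replicate 4 the test again gave 0 genes past the adjusted p and 787 at an unadjusted p under 0.05 (5.52%), 446 higher (3.13%) and 341 lower (2.39%). A log2 difference of 1 or more in size was reached by 243 genes, 85 higher and 158 lower, none past the adjusted p.

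The median standard error of a log2 difference was 0.13, and the 95% confidence interval lay wholly inside -1 to 1 for 11999 genes (84.2%). For those genes a change of 2-fold or more was outside the interval, and for the others the data set no such limit. Leaving out Ctrl replicate 1 gave 3 genes past the adjusted p, Lrrc10, Sytl2 and Phlda1, of which 1 was called. The called gene was Phlda1 (log2 difference -1.48 ± 0.22, SE, limma adjusted p = 0.0373 in that fit), a pleckstrin homology-like protein, which was chosen after its values were seen. With all 8 libraries Phlda1 averaged 199 ± 62.3 in Ovx and 462 ± 217 in Ctrl mice (SD, n = 4 each), with a limma adjusted p of 0.563.

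This count depended on the scale of the deposited table. The table has a block of columns for the 8 libraries of mice without ovaries and a block for the 8 libraries of mice with ovaries. Factors recomputed from the deposited values by the median-of-ratios method were 0.945 to 0.950 for the block of the Ovx libraries and 1.06 to 1.07 for the block of the Ctrl libraries, so a gene with no difference would appear lower in Ovx mice. Without rescaling limma called 32 genes (0.224%), of which 3 (0.021%) were higher and 29 (0.203%) lower in Ovx mice. The adjusted p alone was passed by 1380 (9.68%), with 4 (0.028%) higher and 1376 (9.65%) lower. The median of all genes was -0.17 on the log2 scale before rescaling and -0.01 after it. After rescaling all 32 had an unadjusted p under 0.05 and a limma adjusted p of 0.563, and 27 still had a log2 difference of 1 or more in size. Since the blocks and the groups coincide, an effect of the operation and a difference between the blocks other than a common factor cannot be told apart. All values from here on are rescaled normalised counts, and a difference is Ovx minus Ctrl on the log2(count + 1) scale with its standard error (SE). The SE comes from the fit of all 16 libraries. The spread within the AngII-infused groups and a variance prior taken over all genes therefore enter it.

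**Figure D1:**
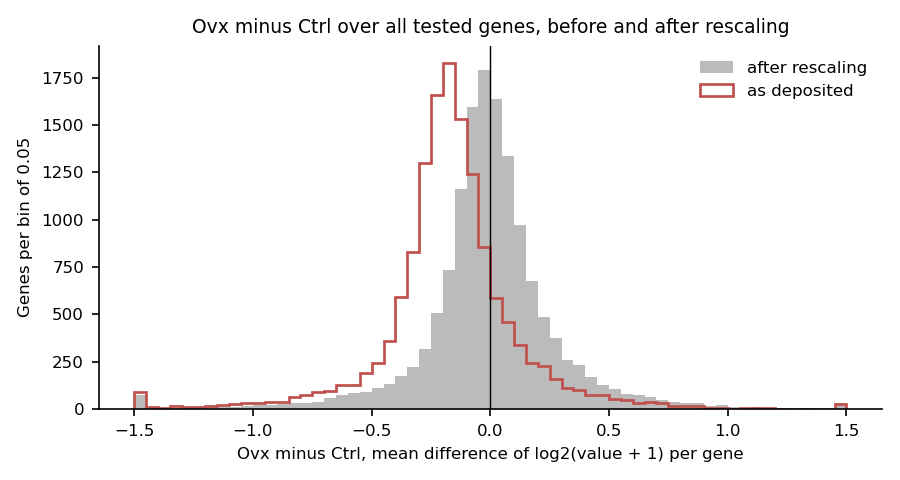
Histogram of the log2 difference, Ovx minus Ctrl, of the 14251 tested genes in bins of 0.05, after rescaling (grey) and as deposited (red outline); values beyond -1.5 or 1.5 are drawn in the end bins. The deposited values centre on -0.17 and the rescaled ones on -0.01.

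The gene of smallest p was Lrrc10, a leucine-rich repeat protein of cardiomyocytes that has been linked to dilated cardiomyopathy (chromosome 10, 117045341 to 117046768 of GRCm38.p6, as for all positions here). It had 990.5, 1026, 1193 and 1254 normalised counts in the 4 Ovx libraries, against 1428, 2022, 2037 and 2599 in the 4 Ctrl libraries. All Ovx values lay below all Ctrl values, with Ctrl replicate 4 the highest. The log2 difference was -0.83 ± 0.16 (SE; 95% confidence interval -1.16 to -0.50; limma adjusted p = 0.501) and -0.70 without Ctrl replicate 4.

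Among the genes whose groups of 4 did not overlap and whose mean reached 50 normalised counts (271 higher, 287 lower), the 10 of smallest p in each direction are named here, and none passed the adjusted p. Tom1l1, an adaptor of endosomal sorting (chromosome 11, 90645690 to 90688279), had 448, 493, 424 and 426 in Ovx and 605, 561, 558 and 589 in Ctrl libraries (-0.37 ± 0.07, limma adjusted p = 0.501). All Ovx values lay below all Ctrl values, and Ctrl replicate 4 lay among the other Ctrl libraries. Adamtsl2, a secreted glycoprotein that binds fibrillin and latent TGF-beta binding proteins (chromosome 2, 27079336 to 27108981), had 415, 242, 339.9 and 245 in Ovx and 469.9, 563, 589 and 1066 in Ctrl libraries (-1.08 ± 0.27, and -0.83 without Ctrl replicate 4). H2-T24, a non-classical class I antigen-presenting molecule, had 71.4, 79.2, 54.5 and 86.5 in Ovx and 96.5, 172, 162 and 397 in Ctrl libraries (-1.32 ± 0.34), with the highest value again in Ctrl replicate 4. Cd33, a sialic acid receptor of myeloid cells, was at 62.6 to 97.4 in Ovx and 111 to 171 in Ctrl libraries (-0.68 ± 0.16). The other 5 lower genes were the tRNA methyltransferase relative Trmt1l (-0.28 ± 0.06), the nucleolar proteins Noc2l (-0.34 ± 0.09) and Gpatch4 (-0.44 ± 0.11), Ociad2 (-0.39 ± 0.10) and the Kelch-repeat protein Kbtbd11 (-0.48 ± 0.13). The limma adjusted p was 0.563 for each of the 5.

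On the higher side, Sytl2, an effector of Rab27 in vesicle transport (chromosome 7, 90302211 to 90410719), had 1323, 1247, 1250.2 and 1396 in Ovx and 1225, 792, 839.6 and 598 in Ctrl libraries (0.64 ± 0.16). Ctrl replicate 1 lay close to the Ovx values and the other 3 Ctrl libraries lay well below. Erbb4, the receptor through which neuregulin acts on cardiomyocytes (chromosome 1, 68031884 to 69108576), had 1701, 1962, 1623 and 2053 in Ovx and 1499.8, 1362, 966 and 1041 in Ctrl libraries (0.61 ± 0.16, 0.54 without Ctrl replicate 4). Rfx3, a transcription factor of cilium genes (chromosome 19, 27761721 to 28014669), had 207, 234, 221 and 232 in Ovx and 170.5, 148, 108 and 164 in Ctrl libraries (0.62 ± 0.15). For both genes all Ovx values lay above all Ctrl values. Fat3, an atypical cadherin, was at 176 to 257 in Ovx and 108 to 168 in Ctrl libraries (0.66 ± 0.18), and Crb2, a Crumbs polarity protein, at 279 to 337 in Ovx and 177 to 274 in Ctrl libraries (0.49 ± 0.13). The other named differences were those of the octamer-binding factor Pou2f1 (0.35 ± 0.09), the ubiquitin ligase and helicase Shprh (0.45 ± 0.11), the mRNA-decay exoribonuclease Xrn1 (0.27 ± 0.07) and the zinc finger protein Zfp759 (0.67 ± 0.18). Tmem254c had 484, 181, 37.4 and 45.9 in Ovx and 8.16, 14.3, 0 and 0 in Ctrl libraries (5.03 ± 1.34), but it has near-identical copies among which reads can be divided, so its values are uncertain. All 20 genes kept an unadjusted p under 0.05 when Ctrl replicate 4 was left out, and none passed the adjusted p there. They had been chosen for their small p with the same libraries, so this is no independent check.

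**Figure D2:**
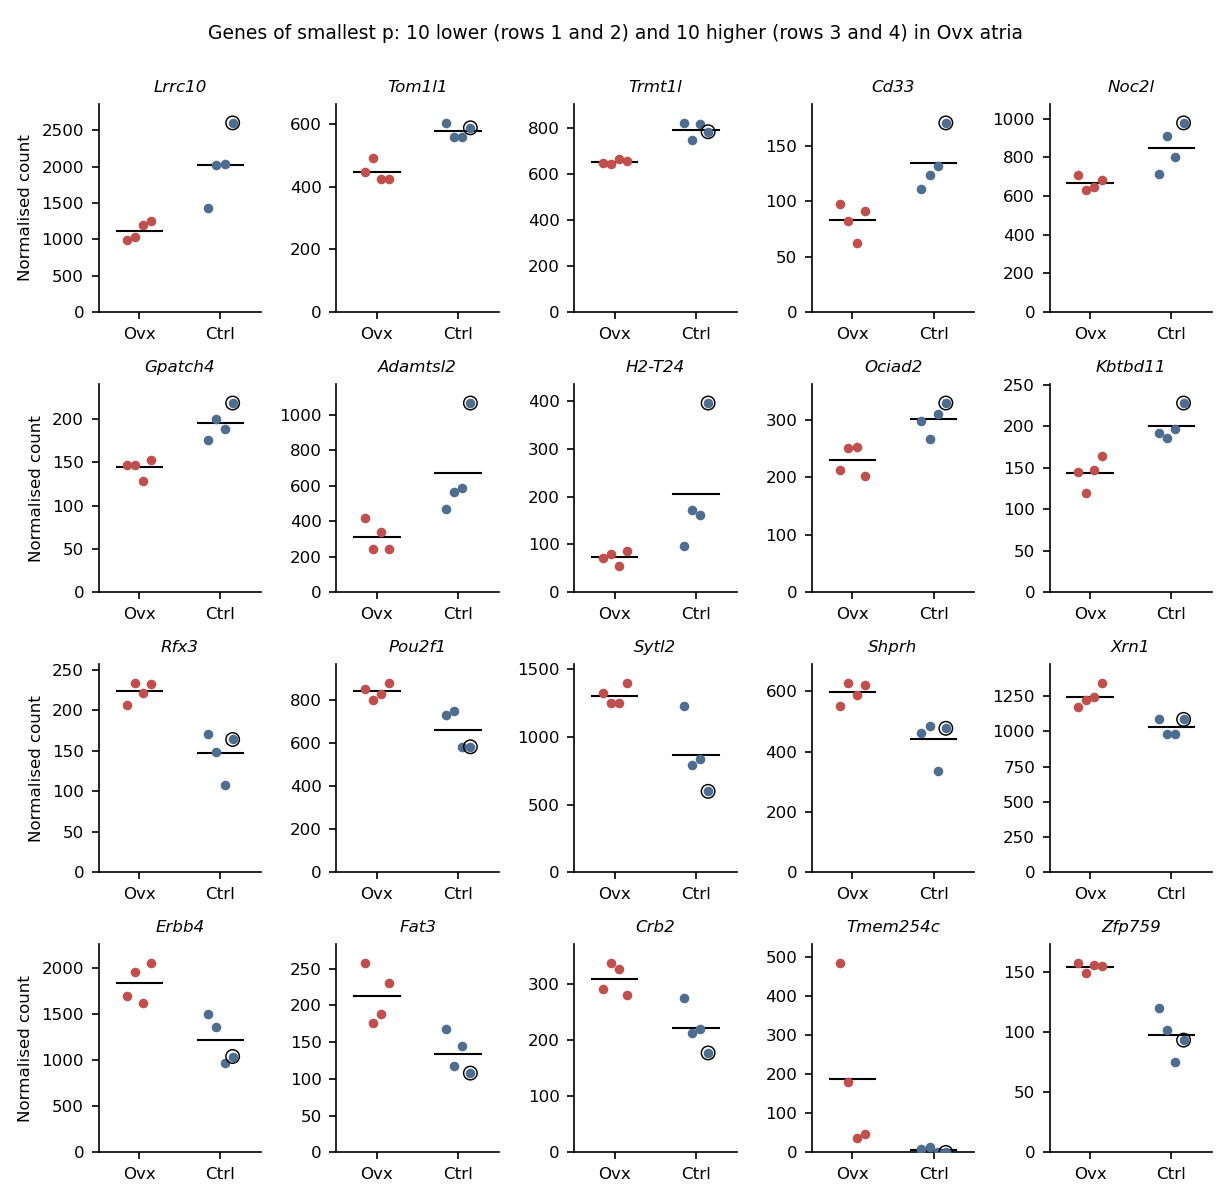
Normalised counts of the 20 genes of smallest p with groups that did not overlap, each with the 4 Ovx libraries (red, left) and the 4 Ctrl libraries (blue, right); bars are means and a ring marks Ctrl replicate 4. Lrrc10 lies between 990.5 and 1254 in Ovx and between 1428 and 2599 in Ctrl libraries.

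Of the receptors through which ovarian steroids act, Esr1, Esr2 and Gper1 were present at low to moderate levels, and the progesterone receptor was at or near 0. Esr1 (chromosome 10, 4611989 to 5005633) had 157, 104, 155 and 162 normalised counts in Ovx and 127, 117, 147 and 136 in Ctrl libraries. The groups overlapped, and the log2 difference was 0.11 ± 0.28 (95% confidence interval -0.47 to 0.70, limma adjusted p = 0.917). Esr2 (chromosome 12, 76120419 to 76177259) was rarer, with 27.2, 31.1, 29.3 and 22.7 in Ovx and 16.7, 9.01, 19.1 and 5.06 in Ctrl libraries. Here all Ovx values lay above all Ctrl values, by 1.23 ± 0.45 on the log2 scale (limma adjusted p = 0.563), and by 0.89 without Ctrl replicate 4. At such counts sampling noise is large. Gper1 was at 13.4 to 22.8 in Ovx and 17.6 to 26.3 in Ctrl libraries (-0.45 ± 0.32, limma adjusted p = 0.67). The progesterone receptor Pgr, a classic estrogen-induced gene in the uterus, was at 0 in 3 of 4 libraries of each group, with 4.11 in Ovx replicate 2 and 4.92 in Ctrl replicate 4, and was too low to test. Nrip1, a corepressor that binds nuclear receptors, overlapped between the groups (0.20 ± 0.11, 0.11 without Ctrl replicate 4).

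Over the whole list of steroid receptors and their cofactors, 10 of 15 tested members had a difference above 0 and 1, Esr2, was higher at an unadjusted p under 0.05, with a median of 0.06 (-0.10 in the values as deposited), beside -0.01 for all genes, of which 48.1% were above 0. Genes that estrogen induces in other tissues gave a median of 0.05 (-0.12 as deposited), with 1 of 17 higher and 1 lower at an unadjusted p under 0.05. The higher one was Igfbp5, a binding protein of insulin-like growth factors, at 26375 to 33898 in Ovx and 14330.5 to 27858 in Ctrl libraries (0.39 ± 0.17, and 0.18 without Ctrl replicate 4), and the lower one the lysosomal protease Ctsd (-0.25 ± 0.09). Over all genes 8.66% had such a p. Neither Esr2 nor Igfbp5 was at that p without Ctrl replicate 4. Steroid-making and steroid-converting enzymes had 0 higher and 0 lower of 10 at this p (median -0.02, and 0.01 without Ctrl replicate 4).

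The promoters of the named genes were searched for the full estrogen response element, GGTCA and TGACC set 3 bases apart, in the 250 bases before to 50 bases after each RefSeq transcript start. A gene was counted when any of its promoters held the motif. The full element was in 0 of 62 named genes with a promoter in the table, and in 0.074% of all 27025 genes with one. A single copy of its repeat, AGGTCA, was in 9 of the 62 (18.1% of all genes). The E-box CACGTG, to which Clock and Arntl proteins bind, was in 7 of the 62 (8.09% of all genes). Both strands were searched, the E-box reads the same on both, and the single repeat can form part of the full element. A match is a description of letters and not a bound site. The promoters of Esr2 and Cry1 are shown because both carry an E-box and their transcripts are described here, and that of Arntl because it carries AGGTCA. The capitals mark the motif, and each is written 5′ to 3′ on the strand of the gene.
Esr2, E-box, chr12:76177210-76177509 (GRCm38.p6, minus strand): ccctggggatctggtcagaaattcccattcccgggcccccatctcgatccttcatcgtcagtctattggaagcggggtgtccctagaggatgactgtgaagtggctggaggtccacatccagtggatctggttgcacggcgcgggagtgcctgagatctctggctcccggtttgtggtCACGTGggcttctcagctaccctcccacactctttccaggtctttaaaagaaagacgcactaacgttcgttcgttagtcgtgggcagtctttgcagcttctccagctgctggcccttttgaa
Cry1, E-box, chr10:85185005-85185304 (GRCm38.p6, minus strand): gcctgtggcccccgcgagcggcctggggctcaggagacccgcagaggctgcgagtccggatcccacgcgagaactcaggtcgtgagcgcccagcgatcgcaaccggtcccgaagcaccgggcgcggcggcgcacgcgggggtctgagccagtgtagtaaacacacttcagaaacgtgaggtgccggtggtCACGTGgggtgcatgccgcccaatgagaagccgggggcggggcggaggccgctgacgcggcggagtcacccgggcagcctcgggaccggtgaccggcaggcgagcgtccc
Arntl, AGGTCA, chr7:113207261-113207560 (GRCm38.p6, plus strand): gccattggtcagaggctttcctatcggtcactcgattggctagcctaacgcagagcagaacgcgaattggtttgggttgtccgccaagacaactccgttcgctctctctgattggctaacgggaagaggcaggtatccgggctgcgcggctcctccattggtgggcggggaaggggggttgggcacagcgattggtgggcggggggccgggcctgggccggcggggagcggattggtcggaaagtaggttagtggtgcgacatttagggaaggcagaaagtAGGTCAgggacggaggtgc

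The matrix genes whose differences were 1 or more in size, Ltbp2, Thbs4, Cilp, Adamts8 and Adamtsl2, were all lower in Ovx mice, and none was called. Ltbp2, a latent TGF-beta binding protein that sits on elastic fibres (chromosome 12, 84783212 to 84876558), had 141, 91.9, 134 and 80.1 normalised counts in Ovx and 191, 229, 343 and 871 in Ctrl libraries. The groups did not overlap, and Ctrl replicate 4 lay far above the other Ctrl libraries, within the range of the AngII libraries (719 to 2229.6). The log2 difference was -1.63 ± 0.44 (limma adjusted p = 0.563) and -1.18 without Ctrl replicate 4. Thbs4, a thrombospondin secreted by stressed heart (chromosome 13, 92751586 to 92794818), had 13.1, 3.11, 3.01 and 13.4 in Ovx and 28.1, 21.5, 88.7 and 45.0 in Ctrl libraries. Its difference of -2.41 ± 0.64 did not rest on Ctrl replicate 4, since it was -2.35 without it. Cilp, a matrix protein of activated cardiac fibroblasts (chromosome 9, 65265180 to 65280614), had 235, 144, 219 and 159 in Ovx and 254, 337, 551 and 1427 in Ctrl libraries (-1.46 ± 0.42, and -0.96 without Ctrl replicate 4). Its value in Ctrl replicate 4 was also within the range of the AngII libraries (1049 to 2843), whereas for Thbs4 (60.2 to 332 in AngII libraries) and Adamtsl2 (1130.4 to 1656) that library lay below all of them. Ctgf, a connective tissue growth factor, had 6445, 5888, 9787 and 7797 in Ovx and 7622, 11104, 13913 and 24033 in Ctrl libraries, which overlapped (-0.82 ± 0.28, and -0.53 without Ctrl replicate 4). For Ctgf (18243 to 30381 in AngII libraries) and Adamts8 (3682 to 7302) Ctrl replicate 4 again lay within the range of the AngII libraries.

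These genes recur in several of the lists. Activated fibroblast markers had 10 of 12 members below 0 and 5 lower at an unadjusted p under 0.05 (4.46% of all genes), with a median of -0.54 (-0.29 without Ctrl replicate 4, with all 12 below 0 and 3 at that p, against 2.39% of all genes). Matricellular proteins gave 5 of 21 at that p, all lower beside 4.46% of all genes, and a median of -0.28 (-0.14 and 4 members without Ctrl replicate 4). General fibroblast markers had 2 of 14 lower at that p, with a median of -0.06 (-0.03 without Ctrl replicate 4) and summed counts of 143139.7 to 161096 in Ovx and 113329.6 to 153494 in Ctrl libraries. Collagens, the bulk of scar, had 13 of 16 members below 0 but 0 at that p (median -0.15, and -0.06 without Ctrl replicate 4). The collagens of smallest p were Col6a3 (-0.24 ± 0.13), Col8a1 (-0.45 ± 0.28, -0.28 without Ctrl replicate 4) and Col12a1 (-0.49 ± 0.32).

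Matrix proteases and their inhibitors had 3 of 26 lower and 0 higher at an unadjusted p under 0.05, beside 4.46% and 4.2% of all genes. Adamts8, a metalloprotease that cleaves proteoglycans (chromosome 9, 30942562 to 30963838), had 1257, 284, 744 and 252 in Ovx and 1026, 1658, 1559 and 3767 in Ctrl libraries (-1.80 ± 0.48, and -1.44 without Ctrl replicate 4). Ovx replicate 1 lay above the lowest Ctrl library, and the other 3 Ovx libraries lay below all of them. Timp1, an inhibitor of matrix metalloproteases, was at 125 to 173 in Ovx and 141 to 417 in Ctrl libraries (-0.60 ± 0.28, and -0.28 without Ctrl replicate 4). Among elastic fibre genes the microfibril protein Mfap4 was lower (-0.47 ± 0.20) and the fibulin Efemp1 higher (0.32 ± 0.12), with neither called. Ctrl replicate 4 lay within the range of the AngII libraries for Timp1 (315 to 542) and below it for Mfap4 (2333 to 4718). Small proteoglycans also pointed both ways, with Prelp (-0.30 ± 0.11, -0.20 without Ctrl replicate 4) and Bgn (-0.36 ± 0.14, -0.19 without Ctrl replicate 4) lower and Ogn (0.43 ± 0.19) higher. Without Ctrl replicate 4, 0 of 10 tested proteoglycans had a limma p under 0.05, against 3 with it.

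**Figure D3:**
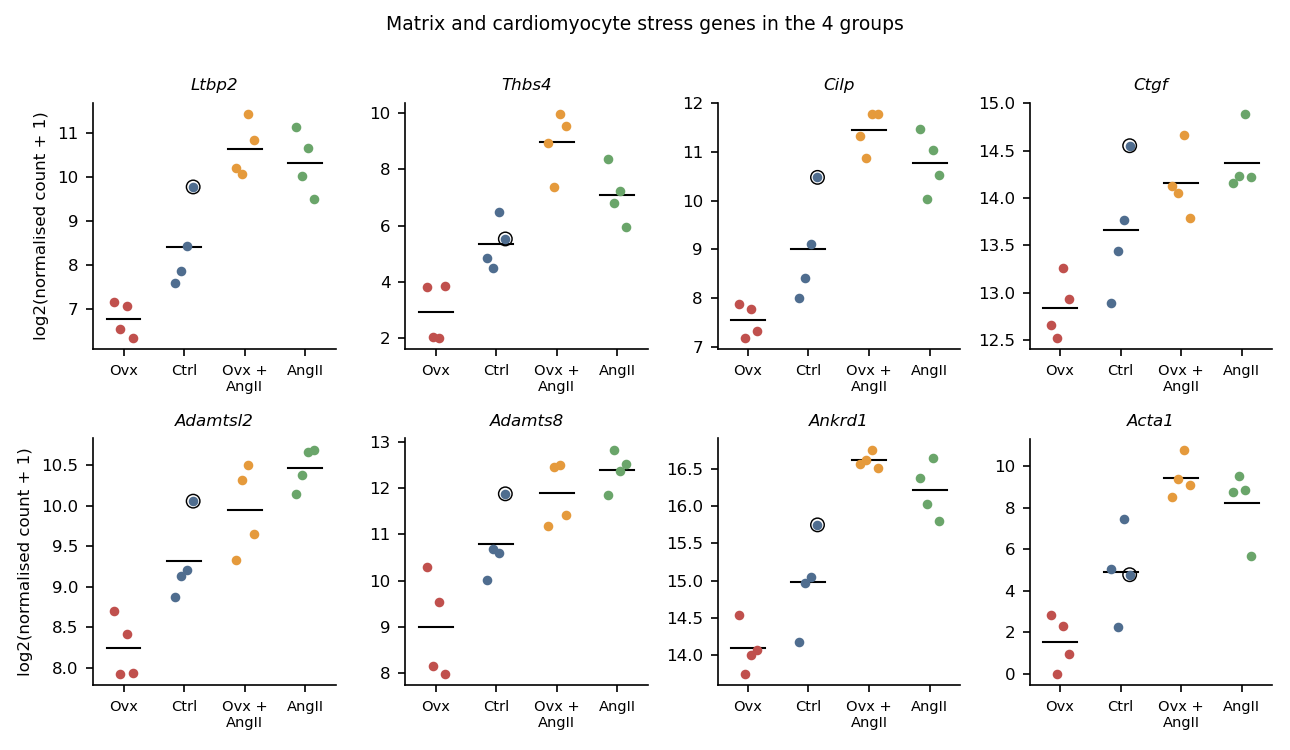
Level of 8 matrix and cardiomyocyte stress genes, as log2(normalised count + 1), in the 4 libraries each of Ovx, Ctrl, Ovx + AngII and AngII mice; bars are means and a ring marks Ctrl replicate 4. Ltbp2, Thbs4 and Cilp lie lower in every Ovx than in every Ctrl library, and all 8 genes reach their highest values in the AngII-infused groups.

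Cardiomyocyte stress genes, several of which the fetal heart expresses, also had most values below 0. Ankrd1, a mechanosensitive repeat protein of the sarcomere and nucleus (chromosome 19, 36111965 to 36119844), had 23830.0, 13785, 16443 and 17237 in Ovx and 18562, 32111, 33793 and 55024 in Ctrl libraries (-0.89 ± 0.26, and -0.64 without Ctrl replicate 4). Ctrl replicate 4 lay below all AngII libraries (56887 to 102725). Acta1, skeletal alpha-actin, had 6.05, 0, 4.00 and 0.958 in Ovx and 32.2, 3.77, 176 and 26.3 in Ctrl libraries (-3.36 ± 0.98), where 1 value of 176 and values near 0 make the estimate wide (95% confidence interval -5.43 to -1.29) and reads can be shared with other actins. Of the 18 tested members of the list, 12 were below 0 and 2 lower at an unadjusted p under 0.05, beside 51.9% and 4.46% of all genes. The list median was -0.20, and -0.14 without Ctrl replicate 4. Acta1 is also a marker of skeletal muscle, a list with a median of -0.26, and -0.47 without Ctrl replicate 4. Of its 10 tested members 7 were below 0, 2 of them at an unadjusted p under 0.05, beside the same 51.9% and 4.46%. The other of the 2 was Tnnt3, the fast skeletal troponin T, which had 14.0, 15.6, 19.5 and 18.7 in Ovx and 43.7, 31.1, 66.8 and 64.3 in Ctrl libraries and did not overlap (-1.50 ± 0.48).

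The natriuretic peptides and myosins were closer. Nppa, the atrial natriuretic peptide, had 383379 to 488122 in Ovx and 459983 to 526120.4 in Ctrl libraries (-0.21 ± 0.23, limma adjusted p = 0.798). Nppb, the B-type peptide, had 4058, 4027, 4084 and 4721 in Ovx and 3322, 8344, 4431 and 11537 in Ctrl libraries (-0.54 ± 0.28, and -0.24 without Ctrl replicate 4), and Ctrl replicate 4 lay below all AngII libraries for Nppa (625765 to 817158) and Nppb (12271 to 19879.9). The 4 Ovx values were close to each other and the Ctrl values spread to both sides of them. Myh6, the main myosin heavy chain of the atrium, had a difference of 0.06 ± 0.25 (-0.06 without Ctrl replicate 4), and Myh7, the slow form, had 157, 123, 120.1 and 110.0 in Ovx and 159.6, 146, 189 and 280.0 in Ctrl libraries (-0.56 ± 0.40, -0.37 without Ctrl replicate 4). Sarcomere genes as a list had a median of 0.05 (26 members, -0.12 as deposited and -0.06 without Ctrl replicate 4), and ion channels and calcium handling genes 0.08 (-0.08 as deposited). Of the 32 ion channel and calcium handling genes 3 were higher and 4 lower at an unadjusted p under 0.05, beside 4.2% and 4.46% of all genes. Without Ctrl replicate 4 their median was -0.02, with 18 of 32 below 0 and 1 lower at that p, beside 2.39% of all genes.

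Most chaperones and proteasome subunits had small differences below 0. In the heat shock and unfolded protein response list 25 of 29 members were below 0 and 9 were lower at an unadjusted p under 0.05, beside 51.9% and 4.46% of all genes. The list median was -0.18. Without Ctrl replicate 4 it was -0.14, with 6 members lower at that p, beside 2.39% of all genes. Bag3, a co-chaperone that maintains the sarcomere, had 4292, 4225, 4282 and 4071 in Ovx and 5427, 4810.5, 5569.8 and 4941 in Ctrl libraries (-0.30 ± 0.08, limma adjusted p = 0.563). The groups did not overlap, and each spanned a narrow range. Hsp90ab1, a constitutive chaperone, had 23170.2, 23266, 23501 and 23390.5 in Ovx and 26077, 30862, 26643 and 28076 in Ctrl libraries (-0.26 ± 0.09), and Hsph1 differed by -0.61 ± 0.19. Of 31 proteasome subunits 29 were below 0 and 5 were lower at that p, beside the same 51.9% and 4.46% (median -0.09). Without Ctrl replicate 4 the proteasome median was -0.12, with 7 members lower at that p, beside the same 2.39%. Psmd4 (-0.22 ± 0.07), Psmd7 (-0.19 ± 0.07) and Psmc2 (-0.17 ± 0.07) had the smallest p. By contrast 38 of 39 cytosolic ribosomal protein genes were above 0 with a median of 0.07, which turned to -0.10 in the values as deposited and was 0.04 without Ctrl replicate 4, and 0 of them had a limma p under 0.05. Differences of this size are below the 0.17 by which the scales of the table differed.

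Nuclear-encoded subunits of the respiratory chain had a median of 0.00, values between -0.08 and 0.15, and 0 of 48 at an unadjusted limma p under 0.05, with 25 below 0. Without Ctrl replicate 4 their median was -0.09 with 44 of 48 below 0, and again 0 at that limma p. Of 25 glycolysis and glucose uptake genes 22 were below 0 (median -0.14, and -0.14 without Ctrl replicate 4), with the glycogen primer Gyg at 2508 to 3079.6 in Ovx and 2964 to 4278 in Ctrl libraries (-0.33 ± 0.11). Ogdhl, a relative of a citric acid cycle dehydrogenase, had 153, 64.2, 99.2 and 63.2 in Ovx and 144, 189.5, 249.5 and 557 in Ctrl libraries (-1.48 ± 0.47, and -1.09 without Ctrl replicate 4). In the fatty acid list 3 of 33 were higher at that p: the fatty acid transporter Slc27a1 (0.37 ± 0.15, 0.18 without Ctrl replicate 4), the thioesterase Acot2 (0.39 ± 0.16) and the lipoprotein lipase inhibitor Angptl4. The count was 1 without Ctrl replicate 4. Of all genes 4.2% were higher at that p, and 3.13% without Ctrl replicate 4. Angptl4 had 497, 138, 161 and 133 in Ovx and 121, 47.8, 95.2 and 119.8 in Ctrl libraries, which did not overlap (1.11 ± 0.47), and Ovx replicate 1 was far above the rest. The median of the fatty acid list was 0.05 (-0.12 as deposited and -0.06 without Ctrl replicate 4).

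White adipocyte markers had a median of 0.75 (0.70 without Ctrl replicate 4), with 9 of 12 above 0, beside 48.1% of all genes. At an unadjusted p under 0.05, 4 were higher, beside 4.2% of all genes. Without Ctrl replicate 4 it was 1, beside 3.13%. Adipoq, the adipocyte hormone adiponectin (chromosome 16, 23146536 to 23157968), had 584, 110.1, 59.4 and 128 in Ovx and 113, 71.2, 6.54 and 14.8 in Ctrl libraries (2.25 ± 0.81, limma adjusted p = 0.563). Lep, leptin, had 54.5, 28.7, 11.1 and 17.1 in Ovx and 33.7, 1.85, 0.929 and 0 in Ctrl libraries (2.72 ± 1.14), and Retn, resistin, had 211, 40.6, 29.4 and 61.8 in Ovx and 41.8, 46.7, 9.34 and 11.8 in Ctrl libraries (1.49 ± 0.63). Ovx replicate 1 was highest for all 3, and Ctrl replicate 1 was the highest or second highest of its group. Summed counts of all 13 markers overlapped, at 29022 to 39339 in Ovx and 30724 to 35292 in Ctrl libraries. Cd36, a fatty acid transporter that heart muscle also expresses, was the most abundant member, with 15771 ± 1488 in Ovx and 16501 ± 1228 in Ctrl libraries (SD, n = 4 each) and a difference of -0.07. How much fat was dissected with each atrium is not recorded in the labels, and its part in these values was not tested.

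Immune genes had most values below 0, and the size of their differences depended on Ctrl replicate 4. All 40 interferon-stimulated genes had a difference below 0, with a median of -0.60 and 16 lower at an unadjusted p under 0.05, against a background of 4.46% lower over all genes. Without Ctrl replicate 4 the median was -0.20, 34 of the 40 were below 0 and 1 was lower at that p, beside 2.39% of all genes. Igtp, an interferon-induced GTPase (chromosome 11, 58199556 to 58207592), had 464, 278, 459 and 505 in Ovx and 452, 449, 5181 and 4802 in Ctrl libraries (-1.85 ± 0.66, and -1.29 without Ctrl replicate 4), where Ctrl replicates 3 and 4 were high and replicates 1 and 2 were in the Ovx range. Zbp1, a sensor of nucleic acids, had 92.8, 48.8, 79.7 and 93.4 in Ovx and 72.6, 119.9, 293 and 999.5 in Ctrl libraries (-1.55 ± 0.56, and -0.84 without Ctrl replicate 4). Bst2, tetherin, which holds virus particles at the cell surface, had 615, 568, 550.4 and 581 in Ovx and 506, 959.6, 886 and 1725 in Ctrl libraries (-0.68 ± 0.25, -0.38 without Ctrl replicate 4). For all 3 genes the 4 Ovx values spanned a narrower range than the 4 Ctrl values, and the groups overlapped.

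Macrophage markers had a median of -0.44 with 15 of 16 below 0, and -0.12 with 12 of 16 below 0 without Ctrl replicate 4. Their summed counts were 16644 to 20229 in Ovx and 17118 to 49815 in Ctrl libraries. Adgre1, the macrophage antigen F4/80, had 528, 476, 594 and 589 in Ovx and 503, 996, 631 and 1736 in Ctrl libraries (-0.66 ± 0.27, and -0.32 without Ctrl replicate 4). Antigen presentation and complement genes were lower in 27 of 28 cases, among them the complement subunit C1qa (-0.55 ± 0.22, -0.28 without Ctrl replicate 4) and the peptide transporter Tap2 (-0.47 ± 0.19, -0.26 without Ctrl replicate 4), with a list median of -0.47 that shrank to -0.06 without Ctrl replicate 4. Without that library 18 of the 28 were below 0. Chemokines and cytokines gave a median of -0.49, and -0.05 with 14 of 23 below 0 without Ctrl replicate 4. Cxcl9, an interferon-gamma-induced chemokine, had 45.7, 30.4, 54.0 and 46.5 in Ovx and 37.0, 38.3, 650.1 and 757 in Ctrl libraries (-1.90 ± 0.86, and -1.16 without Ctrl replicate 4). Ccl2, which draws monocytes, had 67.8, 22.1, 25.6 and 40.2 in Ovx and 31.0, 60.9, 88.8 and 591 in Ctrl libraries (-1.48 ± 0.68, and -0.63 without Ctrl replicate 4). B and plasma cell markers went the other way, with a median of 0.40 and 9 of 10 above 0. At an unadjusted p under 0.05, 1 was higher, beside 4.2% of all genes. Without Ctrl replicate 4 the B and plasma cell median was 1.23, with all 10 above 0 and 4 higher at that p, beside 3.13% of all genes. Their summed counts were 812 to 1117 in Ovx libraries, against 565 to 743 in Ctrl replicates 1 to 3 and 1974 in Ctrl replicate 4.

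**Figure D4:**
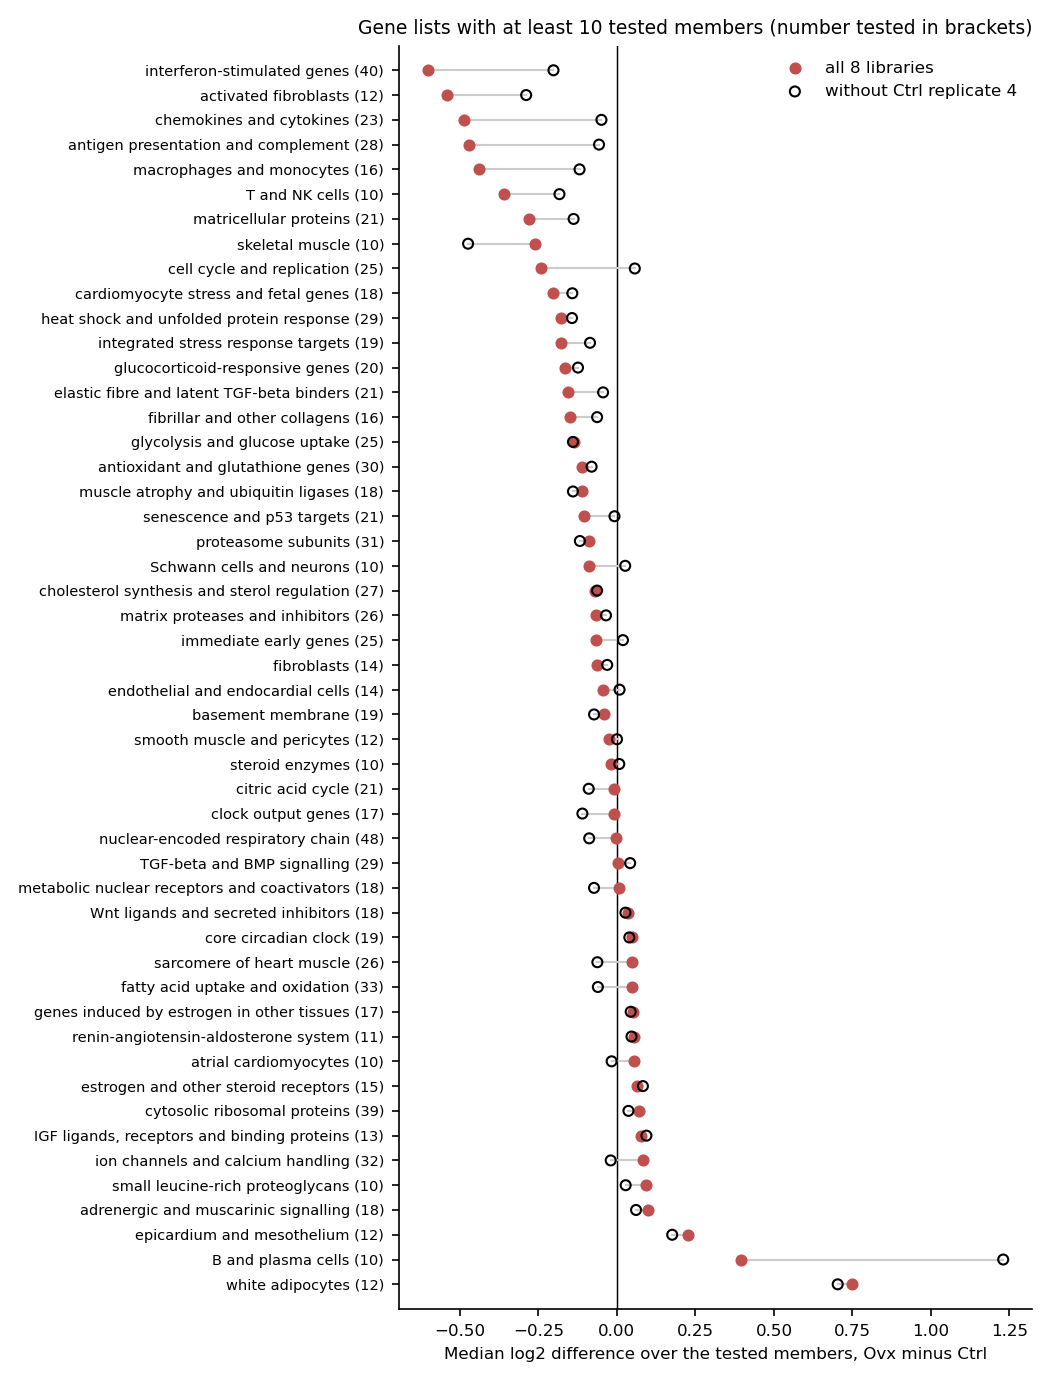
Median log2 difference, Ovx minus Ctrl, of each gene list with at least 10 tested members, with all 8 libraries (red) and without Ctrl replicate 4 (open circles). The interferon-stimulated, chemokine, antigen presentation and macrophage lists move towards 0 without that library, and the white adipocyte list lies at 0.75 with it and 0.70 without.

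The core clock is a feedback loop in which Clock and Arntl drive the Per and Cry genes, whose products repress them, so that Arntl and Per2 transcripts peak at opposite times of day. Arntl (chromosome 7, 113178471 to 113314126) had 448, 76.7, 151 and 329 normalised counts in Ovx and 149, 696, 84.7 and 669 in Ctrl libraries (-0.44 ± 0.65, limma adjusted p = 0.844, -0.02 without Ctrl replicate 4). Per2 (chromosome 1, 91415977 to 91459351) had 421, 1441, 1206 and 772 in Ovx and 1130.1, 745, 1365 and 535 in Ctrl libraries (-0.03 ± 0.36, limma adjusted p = 0.989, -0.27 without Ctrl replicate 4). In the Ovx group the order of the 4 libraries for Per2 was the reverse of that for Arntl. In the Ctrl group the 2 libraries high in Arntl were also the 2 low in Per2. Nfil3, a repressor under clock control, had 145, 43.4, 51.3 and 65.8 in Ovx and 57.1, 297, 103 and 216 in Ctrl libraries (-1.03 ± 0.49). Clock itself overlapped as well, with 1928, 1148, 1472 and 1752 in Ovx and 1293, 1909, 745 and 1761 in Ctrl libraries (0.20 ± 0.23, 0.33 without Ctrl replicate 4). Tissue was collected over several hours of the light phase, according to the study's methods, and the hour of each mouse is not in the labels, so its part in these values was not tested.

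Of 19 core clock genes 2 were higher and 1 lower at an unadjusted limma p under 0.05, beside 4.2% and 4.46% of all genes. The list median was 0.05, and -0.12 as deposited. Rora, a nuclear receptor that activates Arntl, had 1099, 1370.0, 1209.6 and 1186 in Ovx and 1035, 1013, 824 and 1018 in Ctrl libraries, with all Ovx values above all Ctrl values (0.32 ± 0.12, limma adjusted p = 0.563). Cry1, the repressor whose E-box promoter is printed above, had 183, 228, 221 and 206 in Ovx and 272, 299, 286 and 222 in Ctrl libraries (-0.36 ± 0.15). Clock output genes had a median of -0.01 (-0.11 without Ctrl replicate 4) and 0 of 17 at that limma p.

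**Figure D5:**
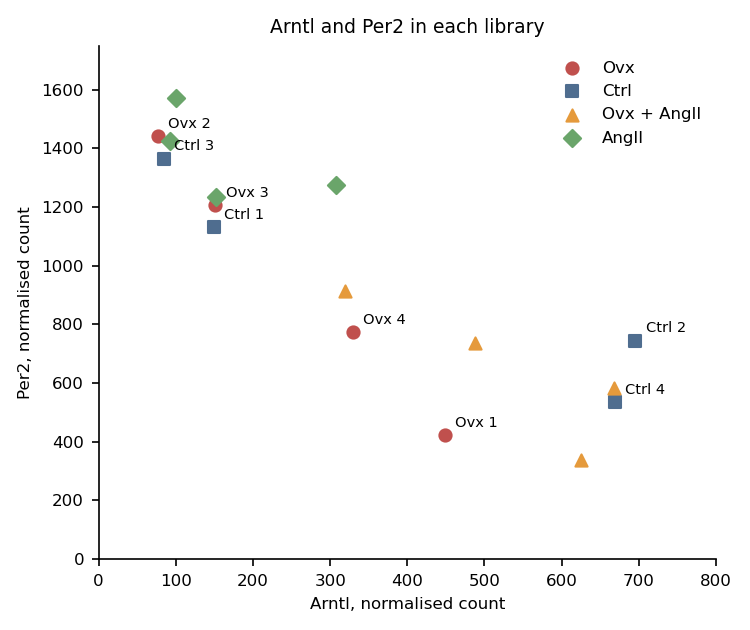
Normalised counts of Arntl (horizontal axis) and Per2 (vertical axis) in each of the 16 libraries, coloured by group, with Ovx and Ctrl libraries labelled by replicate. Arntl lies between 76.7 and 448 in Ovx and between 84.7 and 696 in Ctrl libraries, of which replicates 2 and 4 lie above every Ovx library.

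A gene of sympathetic nerves and several genes of the outer layer of the heart were higher in Ovx mice without being called. Dbh, the enzyme that makes noradrenaline and a marker of sympathetic nerves (chromosome 2, 27165507 to 27183204), had 40.6, 59.4, 52.0 and 60.6 in Ovx and 40.3, 13.1, 12.9 and 8.80 in Ctrl libraries. The groups did not overlap, though Ctrl replicate 1 almost reached the lowest Ovx value (1.67 ± 0.46, and 1.41 without Ctrl replicate 4). The list of Schwann cell and neuron markers to which it belongs had 4 of 10 members above 0 and a median of -0.09 (0.03 without Ctrl replicate 4). Of 12 epicardial and mesothelial markers 11 were above 0 (median 0.23, and 0.18 without Ctrl replicate 4), with 2 higher at an unadjusted p under 0.05 (4.2% of all genes) and 0 by limma without Ctrl replicate 4. Under AngII 8 of the 12 were below 0 (median -0.13). Sfrp5, a secreted Wnt antagonist, had 586, 1237, 782 and 1405 in Ovx and 1262, 325, 332 and 33.7 in Ctrl libraries (1.85 ± 0.81, and 0.88 without Ctrl replicate 4), and Ctrl replicate 1 lay among the Ovx values. Rspo3, which enhances Wnt signals, had 39.6, 24.1, 40.1 and 45.8 in Ovx and 26.1, 11.8, 18.0 and 9.04 in Ctrl libraries (1.22 ± 0.44). Sfrp5 and Rspo3 were taken from a list of Wnt ligands and secreted inhibitors, not from the epicardial one. Of its 18 tested members 11 were above 0 (median 0.04, and 0.03 without Ctrl replicate 4). At an unadjusted p under 0.05, 2 were higher and 1 lower, beside 4.2% and 4.46% of all genes.

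The renin-angiotensin system was measured because its peptide is the stimulus of the other arms of the study. Agtr1a, the main AngII receptor, had 337, 383, 374 and 422 in Ovx and 386, 242, 409 and 276 in Ctrl libraries (0.24 ± 0.19, 95% confidence interval -0.17 to 0.65, limma adjusted p = 0.704). Ace, the converting enzyme, had 2509, 2289.8, 2529.8 and 2119 in Ovx and 2845, 2396, 3782 and 4786 in Ctrl libraries (-0.50 ± 0.17, and -0.33 without Ctrl replicate 4). Lnpep, an aminopeptidase that binds angiotensin IV, had 2472, 2278, 2282 and 2327 in Ovx and 2024, 2159, 1988 and 1881 in Ctrl libraries and did not overlap (0.22 ± 0.06, limma adjusted p = 0.563). As a list the system had a median of 0.05 over 11 tested members (-0.10 as deposited).

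The counts of the remaining lists at an unadjusted p under 0.05 stand beside 4.2% higher and 4.46% lower of all genes. Without Ctrl replicate 4 those shares were 3.13% and 2.39%. Markers of smooth muscle and pericytes had 0 of 12 in either direction (median -0.02, and 0.00 without Ctrl replicate 4), endothelial and endocardial markers 2 lower of 14 (median -0.05, and 0.01 without Ctrl replicate 4), basement membrane genes 1 lower of 19 (median -0.04, and -0.07 without Ctrl replicate 4) and TGF-beta and BMP signalling genes 1 higher of 29 (median 0.00, -0.16 as deposited and 0.04 without Ctrl replicate 4, where 3 were higher). Cell cycle and replication genes had 0 of 25, with a median of -0.24 that was 0.06 without Ctrl replicate 4. Glucocorticoid-responsive genes had 3 lower and 1 higher of 20 (median -0.17, and -0.12 without Ctrl replicate 4), integrated stress response targets 3 lower of 19 (median -0.18, and -0.09 without Ctrl replicate 4) and antioxidant and glutathione genes 2 lower of 30, or 5 without Ctrl replicate 4 (median -0.11, and -0.08 without Ctrl replicate 4). The 8 red blood cell genes had a median of -1.07, and -0.26 without Ctrl replicate 4. Adrenergic and muscarinic signalling genes had 3 higher and 0 lower of 18 (median 0.10, -0.07 as deposited and 0.06 without Ctrl replicate 4).

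Ovx was then compared with ovary-intact mice under AngII, in 8 other libraries, to see whether the same genes differed. The same blocks of the table were set against each other in both comparisons. Between Ovx + AngII and AngII libraries 0 genes (0%) passed the limma adjusted p, whose smallest value was 0.226, and 878 (6.16%) had an unadjusted p under 0.05. Of the 1234 genes at an unadjusted p under 0.05 in untreated mice, 700 had the same sign under AngII, 73 of them at that p, while 24 had the opposite sign at that p. Agreement of sign was not counted over all genes, so these counts have no background and do not show that differences recurred. Of the 20 named genes of smallest p, 15 had the same sign under AngII. The others were Shprh (-0.10 under AngII), Crb2 (-0.25), Zfp759 (-0.25), Tom1l1 (0.13) and Noc2l (0.003). Lrrc10 had 1913, 1909.6, 2366 and 1906 in Ovx + AngII and 2077, 2935, 2325 and 2964 in AngII libraries (-0.34 ± 0.16), and Cd33 differed by -0.46 ± 0.16 and Fat3 by 0.55 ± 0.18. For these 3 genes the difference lay on the same side in both settings.

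The difference between the 2 Ovx effects was tested as an interaction, and 0 genes (0%) passed its adjusted p in limma, with 826 (5.8%) at an unadjusted p under 0.05 and a smallest adjusted p of 0.831. Matrix genes went either way: Adamts8 (-0.51 under AngII), Adamtsl2 (-0.52) and Ctgf (-0.22) were below 0 in both settings. Thbs4 was higher in Ovx + AngII mice (492, 165, 1011 and 753) than in AngII mice (332, 112, 150.2 and 60.2), by 1.87 ± 0.64 on the log2 scale, whereas the difference in untreated mice was -2.41 (limma adjusted p of the interaction = 0.831). Ltbp2 (0.31 under AngII), Cilp (0.68), Ankrd1 (0.40) and Acta1 (1.22) likewise had values above 0 under AngII and below 0 without it, with a limma adjusted p of 0.831 for the interaction of each. Tom1l1 had 515, 546, 519 and 549.8 in Ovx + AngII and 520.1, 474, 487 and 463 in AngII libraries (0.13 under AngII). Interferon-stimulated genes kept their sign instead, with a median of -0.66 and all 40 below 0 under AngII. The antigen presentation and complement median was -0.31 (all 28 below 0) and the macrophage median -0.42 (all 16 below 0) under AngII. The activated fibroblast median was 0.10 and the white adipocyte median -0.05 under AngII. None of these differences between settings was called.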

How the data were processed

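RNA of the left atrium of female mice was sequenced in 16 libraries, in 4 groups of 4 taken from the sample labels, of which Ovx and Ctrl are compared here. The values are signal: the authors aligned reads to mm10 with STAR, quantified genes with Salmon (versions not given in the sources used here) and deposited read counts normalised by the size factors of a DESeq2 application. The values were not whole multiples of a read, so the sequencing depth of each library could not be recovered and no count model was used. The study's methods give only an average and a range of reads for the LA libraries.

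From the deposited table, 14 symbols that a spreadsheet had turned into dates (0.0721% of the summed values) were left out. Columns were rescaled by median-of-ratios factors over all 16 libraries, because the 2 blocks of the table were on different scales. Genes with a mean of at least 10 were tested on log2(value + 1) with limma 3.58.1 in R 4.3.3 (a mean per group, a trended variance prior, two-sided tests, Benjamini-Hochberg adjustment over 14251 genes). Calls needed an adjusted p no higher than 0.05 together with a log2 difference no smaller than 1. A fold change on this scale understates the change of low genes. The fit was tested on simulated data.

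Since 0 genes passed in limma (1234 at an unadjusted p under 0.05), the named genes were the 10 of smallest p in each direction with a mean of at least 50 and groups that did not overlap, up to 3 members of smallest p in each list, and a fixed set of receptor, matrix, clock and cardiomyocyte genes. Predicted genes were not named, and some genes of the rule are not reported here. Members and lists were chosen with earlier results of these data known. Replicates were numbered in accession order. The labels say only that they are separate samples, so p-values measure the spread between these samples. Promoters came from RefSeq (GRCm38.p6), with 62 of 82 named genes matched. Pseudocounts, filters, scalings, variance settings and single left-out libraries were varied.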

Additional observations from a re-analysis of the deposited data

Results flagged for a closer look

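In 16 of 164 groups of 4 values (82 named genes in Ovx and in Ctrl), 1 library stood apart from the other 3 by Dixon's criterion, 8 times in Ovx and 8 times in Ctrl mice. Chance marks about 1 in 20 groups where values are normally distributed. The criterion was applied to counts without logs, and a group of 3 zeros and 1 positive value, as for Pgr, is always marked. An excess over chance can therefore not be read from the 16.

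In Ovx mice the high values were in replicate 1 for 3 genes. Angptl4, an inhibitor of lipoprotein lipase, was at 497 normalised counts there and at 133 to 161 in the other 3 libraries. Adipoq, adiponectin, was at 584 against 59.4 to 128, and the chaperone Hsph1 was at 1138 against 689 to 762. Replicate 2 was high for Col12a1, a fibril-associated collagen, at 87.0 against 58.3 to 60.8, and for the progesterone receptor Pgr, at 4.11 against 0. It was low for Esr1, at 104 against 155 to 162. Replicate 4 was high for the natriuretic peptide Nppb, at 4721 against 4027 to 4084, and low for the fatty acid transporter Slc27a1, at 3066 against 3834 to 3952.

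In Ctrl mice replicate 3 was low for the helicase Shprh, at 337 against 463 to 487, for Gper1, at 17.6 against 26.1 to 26.3, and for Rora, at 824 against 1013 to 1035. The same library was high for skeletal actin Acta1, at 176 against 3.77 to 32.2. Replicate 1 was high for leptin, Lep, at 33.7 against 0 to 1.85, and for the noradrenaline enzyme Dbh, at 40.3 against 8.80 to 13.1. Replicate 4 was high for the chemokine Ccl2, at 591 against 31.0 to 88.8, and for Pgr, at 4.92 against 0.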

How the results depend on the processing

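Between Ovx and Ctrl mice 0 genes were called by limma under pseudocounts of 0.5 and 5, 3 other filters on low values, 3 other scalings, a fit on the 8 compared libraries alone and 3 other variance settings, with 1070 to 1480 genes at an unadjusted p under 0.05. In the values as deposited 32 genes were called and 1380 passed the adjusted p alone, and between Ovx + AngII and AngII mice 5 were called (Fam107a, Fkbp5, Hhipl1, Ifi205 and Ifi207, all lower and named after their values were seen). That setting moved the median of all genes to -0.17, and it turned the sign of 18 of the 59 list medians. Leaving out each library in turn gave 0 to 1 genes called between Ovx and Ctrl and 0 to 3 past the adjusted p, with 787 (without Ctrl replicate 4 or Ovx replicate 2) to 2066 (without Ctrl replicate 1) at an unadjusted p under 0.05. It gave 0 to 2 genes called between Ovx + AngII and AngII mice and 0 to 1 for the difference between the effects. The exceptions were those without Ctrl replicate 1 (Phlda1) and without AngII replicate 1 (Ifi205 and Retnla, and Retnla for the difference).

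Named genes kept their direction and their side of the adjusted p in 1647 of 1695 settings, passed it in 38 (36 of them as deposited) and changed sign in 10. In the values as deposited Esr1 was -0.050 and Myh6 -0.10, and with array weights Myh6 was -0.035. Over the fits that left out 1 library, Myh6 ran between -0.058 (without Ctrl replicate 4) and 0.14, Clock between -0.079 (without Ctrl replicate 3) and 0.37, Arntl between -1.01 and 0.023 (without Ovx replicate 2) and Per2 between -0.27 and 0.32 (above 0 without Ctrl replicate 1, Ctrl replicate 3, Ovx replicate 1 or Ovx replicate 4). The cause was not tested. No paired analysis was possible because the labels carry no replicate number or pairing that the groups share. The deposited values hold no read totals, so the depth behind a value is unknown. For genes of few counts such as Esr2, Thbs4, Acta1 and Lep, error was measured only from the spread between libraries. That spread was taken over the 4 groups and moderated by the variance prior.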
